A study of Homo sapiens with 2 samples.

Results

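The genes described here are the nuclear-encoded subunits of the mitochondrial respiratory chain and of ATP synthase, chosen by their symbols alone. Of 40392 genes in the tables, 92 had a protein-coding symbol of the NDUFA, NDUFB, NDUFC, NDUFS, NDUFV, UQCR, COX4I, COX5, COX6, COX7, COX8 or ATP5 families or were SDHA, SDHB, SDHC, SDHD or CYC1. RefSeq's current symbols gave 89 of these, and 3 more (NDUFA4, NDUFA4L2 and ATP5S) carry such a symbol in GENCODE release 29. The readthrough genes NDUFC2-KCTD14 and ATP5MF-PTCD1, and ATP5S, which RefSeq now names DMAC2L, were assigned to no complex. This left 89 subunit genes: 37 of complex I, 4 of complex II, 10 of complex III, 19 of complex IV and 19 of complex V.

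Stably transfected KYSE30 cells, an esophageal squamous cell carcinoma line, were compared by sequencing of rRNA-depleted total RNA. The RHCG group was a stable transfectant of a vector expressing human RHCG, an ammonia and ammonium transporter. The mock group was a stable transfectant of the pIRES2-EGFP vector. The labels do not say whether either transfectant was 1 clone or a pool, or whether the vectors share a backbone. Each group had 1 library, so there is no replicate spread and no test between the groups. Every difference below is between these 2 libraries.

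The respiratory chain of the inner mitochondrial membrane passes electrons from NADH (through complex I) and succinate (through complex II) to ubiquinone, then through complex III and cytochrome c to complex IV, which reduces oxygen. Complexes I, III and IV pump protons, and complex V, the ATP synthase, uses the proton gradient to make ATP. Complexes I, III, IV and V also hold subunits encoded by mitochondrial DNA, which were not analysed here.

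Depth scaling corresponded to about 22100000 reads in the RHCG library and about 18900000 reads in the mock library. RHCG was at 413 RPKM (a read density scaled by gene length and by sequencing depth) in the RHCG library and was listed at 0 in the mock library. Of 8 squamous epithelium markers, 7 were listed above 0, and their summed level was 399 RPKM in the RHCG library against 776 RPKM in the mock library. KRT5 was the marker at 0 in both. Of 12 fibroblast, endothelial, leukocyte and erythroid markers, COL1A1 alone was listed, at 1.44 RPKM in the RHCG library and 1.19 RPKM in the mock library. The part of the squamous marker difference in the results below was not tested.

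Subunit genes were on the whole slightly lower in the RHCG library. The 82 subunit genes with a value summed to 4681 RPKM in the RHCG library and 5472 RPKM in the mock library. Ratios are given as log2((RHCG + 1)/(mock + 1)) in RPKM, and a ratio of 1 or more is called higher and of −1 or less lower. The median over these 82 genes was −0.21, against −0.01 over all 12857 genes with a ratio, and 60 of the 82 (73.2%) lay below 0, against 50.5% of all genes. In bulk RNA, fewer cells of a type and less RNA per cell cannot be told apart.

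The difference was small for nearly every subunit. By the 2-fold rule 2 of the 82 were lower and 0 higher, where 3.30% of all genes were lower and 2.74% higher, so the members' share of 2.44% was near the background. At 1.5-fold, 10 were lower (12.2%), near the 11.5% of all genes, and 1 was higher, where 11.3% of all genes were. Ratios of subunit genes had an SD of 0.37, against 0.54 over all genes. The order of levels was nearly the same in both libraries, with a Spearman correlation of 0.96 across the 82 genes as a description.

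RPKM times transcript length times depth gave approximate read numbers between 24 and 16722, with medians over the genes of the rule that had a value of 674 in the RHCG library and 731 in the mock library. From these, the approximate 95% exact (Clopper-Pearson) interval of the plain fold lay wholly below 1 for 45 of the 82 genes, where 36.7% of all genes did. It lay wholly above 1 for 13, where 36.1% of all genes did, and it held 1 for 24. The depths behind these read numbers are themselves estimates, since many small RNA values were not whole multiples of the value assumed for 1 read. Such intervals cover counting error only, and none of the variation between cultures or library preparations.

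**Figure D1:**
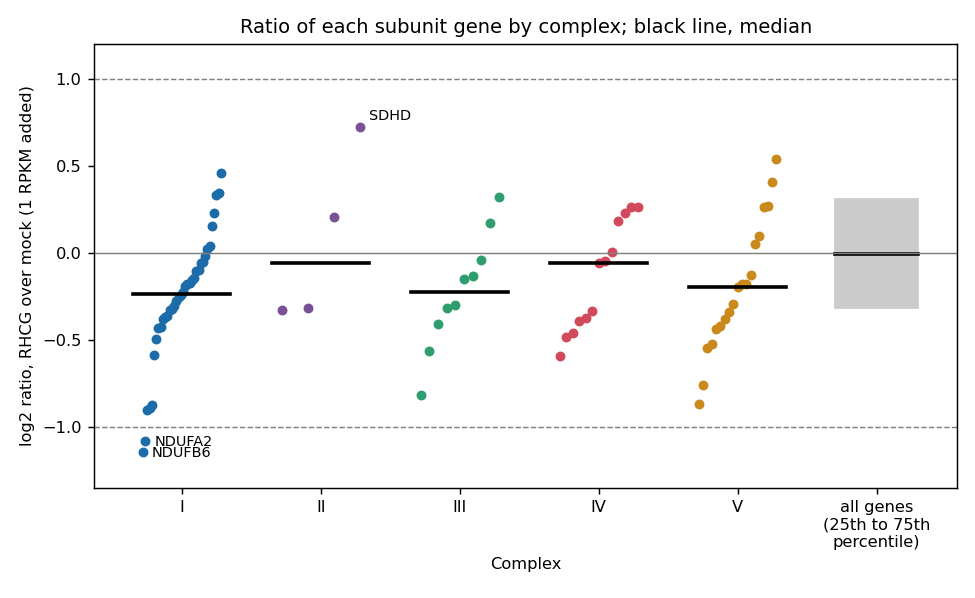
Each point is the log2 ratio (vertical axis, RHCG over mock, 1 RPKM added) of 1 subunit gene, arranged by complex; black lines are medians, dashed lines the 2-fold rule, and the grey box is the 25th to 75th percentile of all genes. Medians lie between −0.23 (complex I) and −0.06 (complexes II and IV), NDUFB6 and NDUFA2 lie past the lower dashed line, and SDHD is the highest point at 0.72.

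Promoter sequence was compared because the factors NRF1 and GABP (of the ETS family) are known regulators of genes for respiratory chain subunits. RefSeq windows of 300 bases (GRCh38.p14; 250 before and 50 after the start site) were matched for 72 of the 89 subunit genes. An NRF1 motif, searched as GCGC, any 2 bases and GCGC (the same on both strands), was in 25.4% of the 67 windows of subunit genes that also had a ratio, against 16.5% of 9420 windows of all protein-coding genes with a ratio. An ETS motif, searched as CCGGAAG on both strands, was in 29.9% against 20.2%. A base may belong to a match of both motifs. These are matches of letters and not known binding sites.

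The median log2 ratio was −0.32 for the 34 subunit genes with either motif and −0.14 for the 33 with neither. Over all protein-coding genes it was 0.00 with and −0.01 without. The difference among the subunit genes was not tested. The 2 genes past 2-fold, NDUFB6 and NDUFA2, had no match in their windows, and the subunit with the highest ratio as computed, SDHD, had a match of each motif. The 80 bases shown lie upstream of the start site on the gene's strand, with matches in capitals (an ETS match on the opposite strand reads CTTCCGG), for these 3 genes and, as examples of matches beside different ratios, for 4 others.
NDUFB6 (chr9:32573160-32573239, minus strand, no match, log2 ratio −1.14): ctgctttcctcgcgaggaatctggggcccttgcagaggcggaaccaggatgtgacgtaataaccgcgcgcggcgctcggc
NDUFA2 (chr5:140647631-140647710, minus strand, no match, log2 ratio −1.08): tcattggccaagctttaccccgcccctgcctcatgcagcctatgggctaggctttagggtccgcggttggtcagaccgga
NDUFA3 (chr19:54102775-54102854, plus strand, NRF1, log2 ratio −0.88): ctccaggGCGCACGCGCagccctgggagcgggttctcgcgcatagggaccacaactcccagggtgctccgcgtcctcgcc
UQCRQ (chr5:132866562-132866641, plus strand, ETS, log2 ratio −0.82): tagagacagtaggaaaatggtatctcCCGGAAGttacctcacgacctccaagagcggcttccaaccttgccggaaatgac
NDUFS3 (chr11:47578972-47579051, plus strand, ETS, log2 ratio −0.59): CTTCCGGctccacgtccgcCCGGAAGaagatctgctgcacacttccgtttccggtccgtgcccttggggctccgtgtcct
SDHA (chr5:218240-218319, plus strand, NRF1, log2 ratio 0.21): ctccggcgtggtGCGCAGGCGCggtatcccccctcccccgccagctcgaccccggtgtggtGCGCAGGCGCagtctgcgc
SDHD (chr11:112086763-112086842, plus strand, NRF1 then ETS, log2 ratio 0.72): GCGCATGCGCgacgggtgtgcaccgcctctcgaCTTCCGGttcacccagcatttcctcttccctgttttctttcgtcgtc
Both kinds of match stood beside ratios below 0 and above 0.

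Complex I, the NADH dehydrogenase, had a median of −0.23, and 29 of its 36 genes with a value lay below 0. The order of the complexes by median was not stable: with the trend of the ratio with GC content and length removed, complex V was lowest at −0.31, complex III was at −0.24 and complex I at −0.18. Both subunit genes past 2-fold belong to complex I. NDUFB6 (chromosome 9), an accessory subunit of the distal membrane arm, was at 13.1 RPKM in the RHCG library and 30.2 RPKM in the mock library, a plain fold of 0.435 with a counting interval of 0.369 to 0.513. NDUFA2 (chromosome 5), an accessory subunit of the peripheral arm, was at 33.4 RPKM in the RHCG library and 71.7 RPKM in the mock library (fold 0.466, interval 0.419 to 0.519). Their ratios of −1.14 and −1.08 were just past the 2-fold rule. NDUFB4, NDUFB7 and NDUFA3 fell just short of it, at −0.90, −0.89 and −0.88.

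The membrane arm, which pumps protons, was set beside the peripheral arm, which oxidises NADH. Of 20 membrane arm genes 17 lay below 0, with a median of −0.29, and of 15 peripheral arm genes 12 did, with a median of −0.18. This order of the arms was not stable. With the median of each gene's chromosomal neighbours subtracted, the membrane arm was at −0.25 and the peripheral arm at −0.28. With the GC and length trend removed, they were at −0.18 and −0.20. As computed, the distal membrane arm went furthest both ways. NDUFB7 was at 97.0 RPKM in the RHCG library against 181 RPKM in the mock library, where it was the most abundant gene of the complex. NDUFB4 was at 4.25 against 8.79 RPKM, and RefSeq names 12 pseudogenes for it. NDUFB2, at the other end, was at 50.7 RPKM in the RHCG library and 36.6 RPKM in the mock library (log2 ratio 0.46), the highest ratio of the complex.

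The 7 nuclear core subunits of the peripheral arm carry the flavin and iron-sulfur centres or bind ubiquinone, and they had ratios from −0.59 to 0.04. NDUFS3 was at 52.3 RPKM in the RHCG library and 79.1 RPKM in the mock library, the lowest core ratio. NDUFS1, the large iron-sulfur subunit, was at 16.2 and 23.3 RPKM in the RHCG and mock libraries (−0.50). NDUFV1, which binds NADH and flavin, was at 122 RPKM in the RHCG library and 118 RPKM in the mock library, and its interval of 0.982 to 1.08 held 1. NDUFS8 likewise lay close to 0, at 0.02. The core subunits of the same arm thus did not share 1 ratio.

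Among the other accessory subunits of complex I, NDUFA13, abundant in both libraries, was at 135 RPKM in the RHCG library and 169 RPKM in the mock library. NDUFAB1, the mitochondrial acyl carrier protein, which also serves fatty acid and lipoate synthesis, was at 64.5 RPKM in the RHCG library against 50.6 RPKM in the mock library (0.34). NDUFV3 was at 20.3 against 15.9 RPKM (0.33). With NDUFB2, these had the 3 highest ratios of the complex. NDUFA5, of the peripheral arm, was listed at 0 in both libraries; genes that cells generally express can be listed at 0 in these tables, so this sets no bound on its expression.

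**Figure D2:**
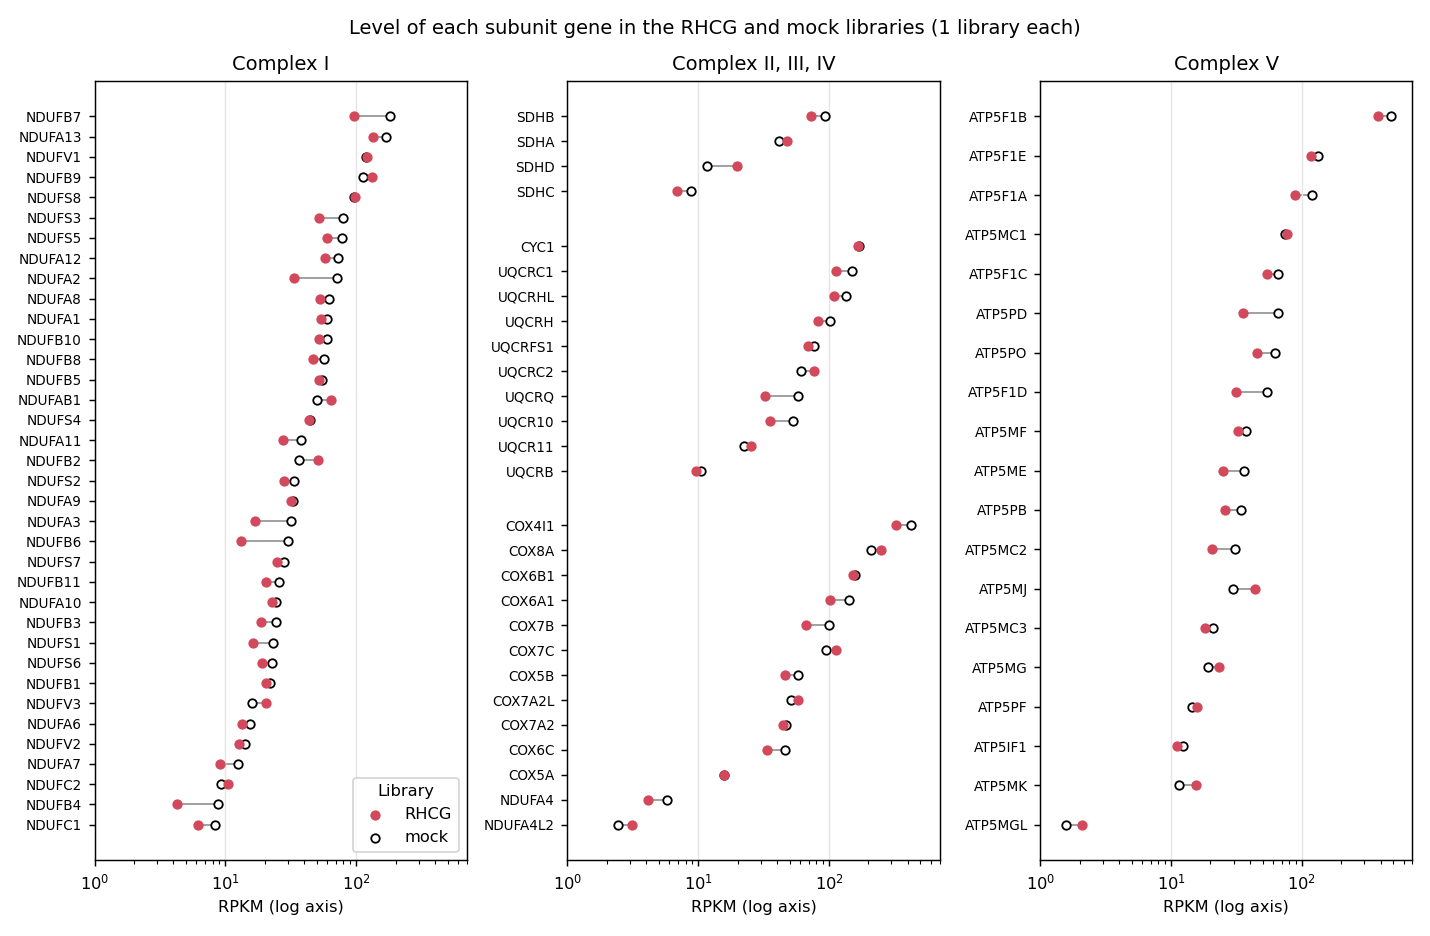
Level of each subunit gene with a value, in RPKM on a log axis, in the RHCG library (filled) and the mock library (open), ordered by the mock level within each complex. Levels within a complex run from 4.25 to 135 RPKM (complex I in the RHCG library) or from 2.10 to 381 RPKM (complex V in the RHCG library), while the paired points of 1 gene mostly lie close together.

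Complex II, succinate dehydrogenase, is wholly encoded in the nucleus, and 2 of its 4 genes lay below 0 as computed. SDHD, a membrane anchor, was at 19.9 RPKM in the RHCG library and 11.7 RPKM in the mock library, a fold of 1.71 with an interval of 1.43 to 2.04. Its ratio was the highest of any subunit gene as computed. With the median of its chromosomal neighbours subtracted SDHD was at 0.30, and so no longer the highest. NDUFA4L2 of complex IV was then at 0.70 and ATP5MJ of complex V at 0.58. SDHC, the other anchor, was at 6.84 RPKM in the RHCG library and 8.77 RPKM in the mock library (−0.32). The anchors therefore went opposite ways, though the interval of SDHC, 0.561 to 1.10, held 1.

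Of the catalytic subunits of complex II, SDHA, the flavoprotein, was at 47.9 RPKM in the RHCG library and 41.4 RPKM in the mock library (0.21), but at −0.19 once the median of its chromosomal neighbours was subtracted. SDHB, the iron-sulfur subunit, was at 73.2 RPKM in the RHCG library and 92.4 RPKM in the mock library (−0.33). It was at −0.25 with its neighbours subtracted, so that SDHA and SDHB then had the same sign. With the GC and length trend removed they were at 0.28 and −0.36, of opposite sign as in the ratios as computed. Of the SDHA pseudogenes, 4 were listed above 0, between 9.85 and 15.8 RPKM in the RHCG library and between 10.6 and 21.9 RPKM in the mock library. How reads were divided between gene and copies is not given in the sources used here.

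Complex III, the cytochrome bc1 complex, had a median of −0.22, with 8 of 10 genes below 0. CYC1, the haem-bearing cytochrome c1, was the most abundant, at 165 RPKM in the RHCG library and 170 RPKM in the mock library (−0.04). UQCRFS1, the Rieske iron-sulfur protein, was at 69.5 RPKM in the RHCG library and 77.1 RPKM in the mock library (−0.15). The catalytic subunits were thus near 0, and larger differences were among the small subunits and the core proteins.

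UQCRQ, a small subunit, was at 32.3 RPKM in the RHCG library and 57.7 RPKM in the mock library (−0.82), and UQCR10 at 35.6 and 52.9 RPKM in the RHCG and mock libraries (−0.56). With neighbours subtracted UQCRQ was at −0.41 and UQCR10 at −0.48. The core proteins UQCRC1 and UQCRC2 went opposite ways. UQCRC1 was at 113 RPKM in the RHCG library against 150 RPKM in the mock library (−0.41). UQCRC2 was at 76.6 RPKM in the RHCG library against 61.2 RPKM in the mock library, the highest ratio of the complex at 0.32. UQCR11 followed at 0.17.

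Several rows of this complex have close sequence copies. UQCRHL, an intronless copy of the hinge protein gene UQCRH, was at 109 RPKM in the RHCG library and 135 RPKM in the mock library, above UQCRH itself at 81.7 and 102 RPKM in the RHCG and mock libraries. Their ratios of −0.30 and −0.32 were alike, and the 2 rows may share reads. UQCRBP1, a pseudogene of UQCRB, was at 21.7 RPKM in the RHCG library and 26.4 RPKM in the mock library, above UQCRB at 9.55 and 10.6 RPKM in the RHCG and mock libraries. Levels of these genes are therefore uncertain.

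Complex IV, cytochrome c oxidase, split almost evenly: 8 of 13 genes with a value lay below 0, with a median of −0.06. Without COX7A2L and NDUFA4L2, which are a supercomplex factor and a paralog of NDUFA4, this median was −0.33 over 11 genes. COX4I1, the general isoform of the largest nuclear subunit, was at 325 RPKM in the RHCG library and 422 RPKM in the mock library (−0.37). COX8A was at 248 RPKM in the RHCG library and 211 RPKM in the mock library (0.23).

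The lowest ratios of complex IV as computed were those of COX7B, at 66.5 RPKM in the RHCG library and 101 RPKM in the mock library (−0.59), COX6A1 (−0.48) and COX6C (−0.46). With neighbours subtracted COX7B was at −0.53 and COX6C at −0.58, but COX6A1 was at −0.14, nearer 0 than COX4I1 at −0.40. COX7C, at 114 RPKM in the RHCG library and 94.6 RPKM in the mock library, was at 0.26 (−0.06 with its neighbours subtracted), and COX5A, which with COX4I1 enters early in assembly, was at 0.01. NDUFA4, long placed in complex I and now assigned to complex IV, was at 4.16 RPKM in the RHCG library and 5.76 RPKM in the mock library (−0.39). NDUFA4L2 was at 3.14 and 2.44 RPKM in the RHCG and mock libraries (0.27, and 0.70 with its neighbours subtracted). Its interval of 0.91 to 1.87 held 1.

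Isoforms of complex IV known from lung, heart, skeletal muscle or testis (COX4I2, COX6A2, COX6B2, COX7A1, COX7B2 and COX8C) were all listed at 0 in both libraries. Their general counterparts were all measured, from 44.8 RPKM for COX7A2 to 325 RPKM for COX4I1 in the RHCG library. The set of isoforms listed above 0 was therefore the same in both libraries.

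Complex V, the ATP synthase, had a median of −0.19, with 13 of 19 genes below 0. All 5 genes of the catalytic F1 head and central stalk lay below 0, with a median of −0.34; with chromosomal neighbours subtracted ATP5F1B was at 0.04. ATP5F1B, the catalytic beta subunit, was the most abundant subunit gene of all, at 381 RPKM in the RHCG library and 481 RPKM in the mock library (−0.34). ATP5F1A, the alpha subunit, was at 89.0 RPKM in the RHCG library and 119 RPKM in the mock library (−0.42). ATP5F1D, the delta subunit, was at 31.5 RPKM in the RHCG library and 54.1 RPKM in the mock library, the lowest of the head at −0.76.

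ATP5F1E, the epsilon subunit, was the second most abundant gene of complex V, at 117 RPKM in the RHCG library and 132 RPKM in the mock library (−0.18), and its copy ATP5F1EP2 was at 45.0 and 50.8 RPKM in the RHCG and mock libraries. In the peripheral stalk, which holds the head still, ATP5PD was at 35.5 RPKM in the RHCG library and 65.6 RPKM in the mock library (−0.87), the lowest ratio of the complex. ATP5PO and ATP5PB were at −0.44 and −0.38, and ATP5PF at 0.10.

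Of the other membrane subunits of complex V, 4 of 6 lay above 0, with a median of 0.27. These small proteins stabilise the membrane part and the dimer. ATP5MJ was at 43.9 RPKM in the RHCG library and 29.9 RPKM in the mock library (0.54), and ATP5MK at 15.6 and 11.5 RPKM in the RHCG and mock libraries (0.40). ATP5MG was at 23.3 against 19.2 RPKM (0.27), and its near-identical copy ATP5MGL at 2.10 against 1.59 RPKM. The interval of ATP5MGL, 0.768 to 2.30, held 1, and these rows may share reads. With neighbours subtracted ATP5MG was at −0.06 and the median of the group at 0.14. ATP5ME, of the same group, was at 24.7 RPKM in the RHCG library and 36.0 RPKM in the mock library (−0.52), so the group was not uniform.

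The genes ATP5MC1, ATP5MC2 and ATP5MC3 encode the same mature c subunit of the rotor ring behind different import sequences. They summed to 115 RPKM in the RHCG library and 125 RPKM in the mock library. ATP5MC1 was at 76.6 RPKM in the RHCG library and 74.0 RPKM in the mock library (0.05), whereas ATP5MC2 was at 20.6 and 30.6 RPKM in the RHCG and mock libraries (−0.55). ATP5MC3 was at −0.19. With chromosomal neighbours subtracted, ATP5MC1 was at 0.24, ATP5MC2 at −0.03 and ATP5MC3 at −0.86, so their order changed. ATP5IF1, the inhibitor that binds the head when the proton gradient collapses, was at 11.2 RPKM in the RHCG library and 12.3 RPKM in the mock library, and its interval of 0.715 to 1.17 held 1.

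Of 131 genes in lists of assembly factors, carriers, the tricarboxylic acid cycle, biogenesis regulators and protein import, 123 had a ratio. Their median was 0.03, with 3 higher and 2 lower. Over all genes 2.74% were higher and 3.30% lower, so neither count exceeded the background share. For assembly factors the median was −0.05 over 48 genes. TMEM126B, a complex I assembly factor, was at 13.6 RPKM in the RHCG library and 6.13 RPKM in the mock library (1.03), and at 0.75 with its neighbours subtracted and 0.88 after the correction for GC content and length, both inside 2-fold. HIGD2A, of complex IV assembly, was at 25.4 RPKM in the RHCG library and 62.3 RPKM in the mock library (−1.26), and the copper chaperone gene COX17 was at 4.30 and 9.70 RPKM in the RHCG and mock libraries (−1.01). The COX17 value was inside 2-fold under both of these corrections, at −0.95 and −0.98, and HIGD2A was lower under both.

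By complex, assembly lists had medians of −0.04 for complex I (16 genes), 0.15 for complex II (2), −0.04 for complex III (3), −0.14 for complex IV (22) and −0.17 for complex V (5). Of the lists for complexes II and III, most abundant were SDHAF2, at 30.4 RPKM in the RHCG library and 26.6 RPKM in the mock library, and TTC19, at 41.8 and 31.6 RPKM in the RHCG and mock libraries. ATPAF2, of complex V assembly, was at 42.0 RPKM in the RHCG library and 52.0 RPKM in the mock library.

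Cytochrome c (CYCS) was nearly equal, at 19.6 RPKM in the RHCG library and 19.7 RPKM in the mock library, and the list of carriers and ubiquinone synthesis had a median of 0.00 over 14 genes. In that list COQ9 was the most abundant, at 59.3 RPKM in the RHCG library and 47.9 RPKM in the mock library. Tricarboxylic acid cycle genes had a median of −0.08, and SUCLA2, a subunit of succinyl-CoA ligase, was higher, at 11.3 RPKM in the RHCG library and 5.07 RPKM in the mock library (1.02). With the neighbour shift removed SUCLA2 was at 0.60, inside 2-fold, and the median of the list was −0.28, below that of the subunit genes.

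The regulators of mitochondrial biogenesis stood on the other side of 0. Of 18 with a ratio, 16 lay above 0, with a median of 0.17, and 0 were past 2-fold in either direction. NRF1 was at 5.95 RPKM in the RHCG library and 5.80 RPKM in the mock library (0.03), and GABPA, the DNA-binding subunit of GABP, at 2.74 and 3.59 RPKM in the RHCG and mock libraries (−0.29). By the mean of both libraries, NFE2L1 and YY1 were the most abundant genes of the list. NFE2L1 was at 103 RPKM in the RHCG library and 54.7 RPKM in the mock library (0.91, and 1.07 with its neighbours subtracted). It is a gene other than NRF1, and its part in mitochondrial biogenesis was not tested. YY1 was at 34.2 and 32.3 RPKM in the RHCG and mock libraries (0.08). The coactivator gene PPARGC1A was listed at 0 in both. Protein import genes had a median of 0.11, and TIMM9 was higher, at 22.3 RPKM in the RHCG library and 10.3 RPKM in the mock library (1.04), and at 0.98 with its neighbours subtracted.

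**Figure D3:**
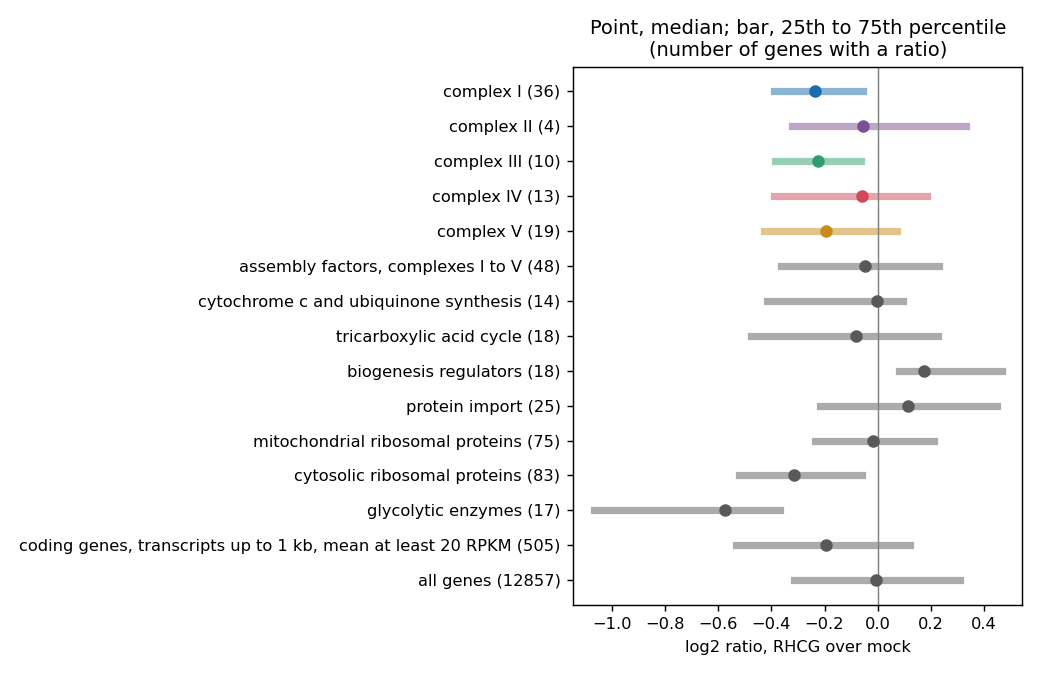
Median log2 ratio (point, RHCG over mock, horizontal axis) and the 25th to 75th percentile (bar) of each gene group, with the number of genes that had a ratio. Complexes I, III and V lie between −0.23 and −0.19, the biogenesis regulators at 0.17, and the glycolytic enzymes furthest left at −0.58.

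Beside other gene groups the subunits took a middle place. Mitochondrial ribosomal protein genes had a median of −0.02 over 75 genes, cytosolic ribosomal protein genes of −0.32 over 83, and glycolytic enzyme genes of −0.58 over 17. Of these 17 glycolytic genes 5 were lower, where 3.30% of all genes were. Summed levels of the glycolytic genes were 3815 RPKM in the RHCG library against 6007 RPKM in the mock library. Among them LDHA was at −1.45, ENO1 at −1.44, PFKM at −1.30 and PGK1 at −1.17. With the GC and length trend removed, the subunits at −0.18 were close to the cytosolic ribosomal protein genes at −0.21. With neighbours subtracted, these groups were at −0.21 and −0.26. No test of the difference between groups was possible with 1 library each.

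Short, abundant transcripts over the whole table also had ratios mostly below 0. Subunit genes had short transcripts, with a median of 752 bases, against 2514 bases over all protein-coding genes with a ratio. The 505 protein-coding genes whose transcripts reach at most 1 kb and whose level averaged 20 RPKM or more had a median of −0.19, close to the subunits' −0.21, and 66.7% of them lay below 0. Once a trend of the ratio with GC content and length was removed over all genes, the subunit median was −0.18 and that of these 505 genes −0.09; the medians of complexes II and IV were then above 0, at 0.06 and 0.03, and that of complex V was further below it, at −0.31. Among the subunit genes themselves the Spearman correlation of ratio with length was 0.09 and with level −0.08, as descriptions. The part of length in the result was otherwise not tested.

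Position on the chromosome also moved with the ratio. Each subunit gene was set against the median ratio in a window of 51 coding genes around it, itself left out, and the Spearman correlation was 0.45 across the 82 genes, as a description; members close to each other share neighbours. SDHD, on chromosome 11, had neighbours at a median of 0.42, and NDUFB2, on chromosome 7, at 0.50. NDUFA2, on chromosome 5, had neighbours at −0.33 and was at −0.75 once these were subtracted, inside 2-fold. NDUFB6 had neighbours at −0.08 and was at −1.06. ATP5MC3, on chromosome 2, was unlike its neighbours, at −0.19 against 0.67. With the neighbour shift removed, the median over the subunit genes was −0.21 and 64 of 82 lay below 0. By complex the medians were then −0.25 for complex I, −0.22 for complex II, −0.20 for complex III, −0.14 for complex IV and −0.11 for complex V, an order unlike that of the ratios as computed. The sign changed for 12 single subunit genes, among them NDUFB2 (−0.04), SDHA (−0.19), COX7C (−0.06) and ATP5F1B (0.04).

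**Figure D4:**
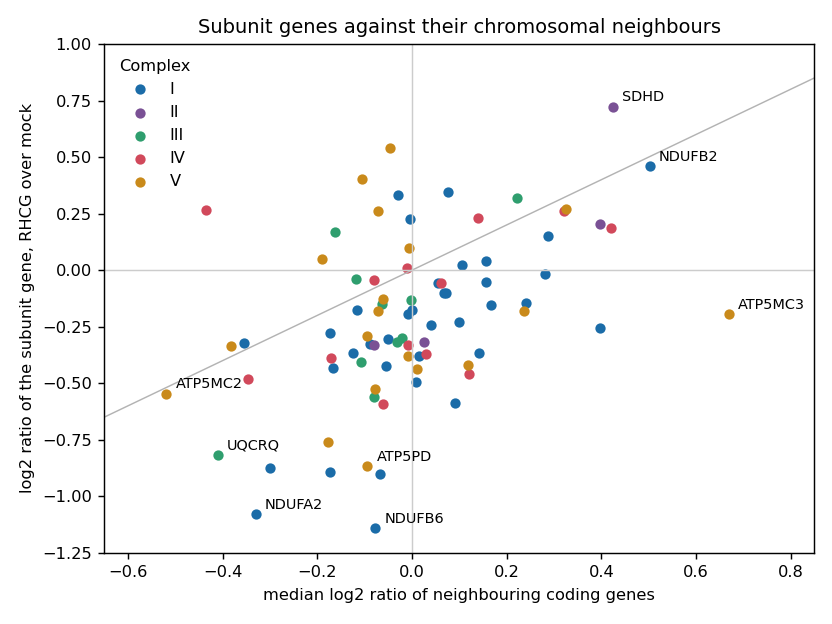
Log2 ratio of each subunit gene (vertical axis, RHCG over mock) against the median log2 ratio of its neighbouring protein-coding genes (horizontal axis), coloured by complex; the grey diagonal marks equality. SDHD and NDUFB2 lie at the upper right beside raised neighbours, NDUFB6 lies far below neighbours near 0, and ATP5MC3 lies below strongly raised neighbours.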

How the data were processed

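Stable RHCG and mock transfectants of KYSE30 cells gave 1 rRNA-depleted library each, made with an Ion Total RNA-Seq kit, per the labels' protocols. The authors deposited 1 table per library, with log2 RPKM values made without a pseudocount and small values set to 0, as read from the values; per the file headers the column is RPKM. Genome build hg19 and bedtools 2.25.0 are named in the submitters' processing notes; for aligner, counting rule and strand, nothing is given in the sources used here. Depth was taken from small RNA genes as the value of 1 read that made the largest number of them whole; within 0.002 reads, 56.0% (RHCG, 14 of 25) and 41.7% (mock, 10 of 24) of values under 20 reads were whole, so counts could not be recovered.

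Rows were summed per Entrez gene (40448 rows, 112 with a copy suffix). Genes listed at 0 in 1 library were set to 1 RPKM and those at 0 in both were left out; 1 RPKM was added to each value before the ratio, so ratios of low genes are understated. Transcript lengths were medians over GENCODE release 29 basic coding transcripts; promoters came from RefSeq on GRCh38.p14, a build other than that of the files. The neighbour median used a window of 51 coding genes with the gene itself left out. Full values were given for members past 2-fold and complex II, and for many of the extremes, most abundant genes and isoform groups of each complex. Some of these, among them COX6A1, COX6C and ATP5MC3, were given as a ratio only, and values of COX6B1 were not given. The members and lists were chosen with earlier results of these data known. The ratios and intervals were tested on simulated data. Tables were handled with pandas 2.3.3 and numpy 2.4.6 in Python 3.11.15, intervals came from scipy 1.17.1, trends from statsmodels 0.14.6, and plots from matplotlib 3.10.9. Alternatives were another pseudocount, floor, filter, scaling, fold and row choice, removal of GC and length or neighbour trends, and other complex memberships.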

Additional observations from a re-analysis of the deposited data

How the results depend on the processing

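No paired analysis was possible because RHCG and mock cells had a single library each; for the same reason none was left out in turn. With a ratio of 1.5-fold, looser by construction, subunit genes past the rule numbered 1 higher and 10 lower: complex I had 6 lower, complex II 1 higher, complex III 1 lower, complex IV 1 lower and complex V 2 lower; the related lists had 17 higher and 13 lower, and all genes 1447 and 1481. With a pseudocount of 0.1 RPKM the related lists had 5 higher and 4 lower genes and all genes 533 and 673, again looser by construction, and NDUFB4 joined the lower subunits. With the GC and length trend removed, or with the neighbour shift removed, 1 subunit gene of complex I was lower in place of 2; NDUFA2 was at −0.97 and −0.75, and the cause was not tested. With the neighbour shift removed the related lists had 1 higher gene, NFE2L1, and 1 lower gene, HIGD2A; the calls of SUCLA2, TIMM9, TMEM126B and COX17 ended, and all genes 219 higher, over protein-coding genes only. The median of complex IV was −0.33 without tissue isoforms and regulators, which leaves 11 genes. Without members that share sequence with another listed gene, an alternative chosen after seeing the data, the complex III median was −0.15 over 7 genes, that of complex II −0.32 over 3 and that of complex V −0.34 over 15.

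The median over subunit genes stayed between −0.26 and −0.18 under these settings. Correcting for GC content and length gave medians of −0.18 for complex I, 0.06 for complex II, −0.24 for complex III, 0.03 for complex IV and −0.31 for complex V. It left 3 higher and 2 lower related genes, but COA4 and DLST took the place of SUCLA2 and TMEM126B, and TIMM21 that of COX17. Of 735 values of single subunit genes under the alternatives, 684 stayed within the counting error and 51 did not. These 51 were 20 of 82 with the GC and length trend removed and 31 of 82 with the neighbour shift removed. The floor and filter settings could move no such value, because no subunit gene was at 0 in only 1 library and a filter only drops genes. The count of 684 therefore overstates stability. With the neighbour shift removed 12 subunit genes changed sign, with the GC and length trend removed 5, and with trimmed mean scaling 1. Neither of the 2 called subunit genes did. Removing the filter on the mean left all values as they were, which was fixed in advance. With the floor of 1 RPKM every gene listed above 0 already passed the filter.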
